A study of Mus musculus with 4 samples.

Results

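Polyamine metabolism was followed through the endothelium of the developing and adult mouse heart with 8 genes out of the 27998 in the count tables. Odc1, Amd1, Srm and Sms encode the enzymes of polyamine synthesis, Oaz1 and Oaz2 encode antizymes, Azin1 encodes the antizyme inhibitor, and Sat1 encodes the enzyme that starts polyamine breakdown. All 8 genes were found in each table. The genes were selected on their levels per stage in endocardial, angiogenic capillary, mature capillary and artery cells of these same libraries, so the levels and folds given here are a description of these libraries and carry no test.

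Wild-type C57Bl6J hearts were pooled at 4 stages, with 37 animals at E12 (embryonic day 12), 48 at E15 (embryonic day 15), 21 at P2 (postnatal day 2) and 6 at 8 weeks of age (adult), and gave 1 droplet library of sorted CD31+/CD45- cells per stage. CD31 marks endothelium and CD45 marks leukocytes. Every library came from cells that had been frozen and thawed, but the tissue digestion differed by stage, and dead cells were removed with a kit at E12 and E15 and by a second sort of live cells at P2 and in the adult. With 1 library per stage there is no replicate error, and a difference between stages cannot be told apart from a difference in digestion, thawing, sorting or library.

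The polyamines putrescine, spermidine and spermine are small positively charged molecules that bind nucleic acids and are needed for cell growth and translation. Ornithine decarboxylase makes putrescine, S-adenosylmethionine decarboxylase supplies the aminopropyl groups, and spermidine synthase and spermine synthase add them in turn. Antizymes bind ornithine decarboxylase, send it to the proteasome and limit polyamine uptake, the antizyme inhibitor holds antizymes away from it, and spermidine/spermine N1-acetyltransferase acetylates polyamines for oxidation or export.

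Antizyme mRNAs are a special case, because their coding sequence is read only when ribosomes shift frame at an early stop codon, a step that polyamines stimulate. The stretch around that stop is shown because it is what the mRNA levels of Oaz1 and Oaz2 cannot report on, and the capitals mark the last codon before the shift and the UGA stop, written as TGA. The 63 bases were read from the GENCODE M21 transcripts of Oaz1 (bases 55 to 117 of 538) and Oaz2 (bases 294 to 356 of 643), and 51 of them are identical.
Oaz1: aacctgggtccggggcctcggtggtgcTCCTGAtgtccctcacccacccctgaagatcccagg
Oaz2: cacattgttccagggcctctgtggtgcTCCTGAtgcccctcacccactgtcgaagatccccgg

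Odc1 and Amd1 encode the 2 decarboxylases of the pathway and were highest in different vessel types, so the bases just before their gene starts are shown together. RefSeq promoter windows on GRCm38.p6 were used up to the GENCODE gene start, which left 171 bases for Odc1 at chr12:17544623-17544793 (plus strand) and 250 bases for Amd1 at chr10:40302189-40302438 (minus strand). Capitals mark GC boxes (GGGCGG on either strand) and, in Amd1, the stretch with overlapping matches to a TATA box (TATANAA).
Odc1: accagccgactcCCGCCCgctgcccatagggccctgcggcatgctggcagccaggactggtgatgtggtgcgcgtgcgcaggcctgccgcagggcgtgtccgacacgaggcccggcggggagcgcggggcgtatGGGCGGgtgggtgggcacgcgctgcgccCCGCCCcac
Amd1: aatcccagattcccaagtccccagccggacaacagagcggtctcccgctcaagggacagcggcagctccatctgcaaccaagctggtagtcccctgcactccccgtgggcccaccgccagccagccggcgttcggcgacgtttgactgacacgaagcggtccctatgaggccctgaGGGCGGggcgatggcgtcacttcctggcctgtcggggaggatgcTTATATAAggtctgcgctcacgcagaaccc
The Odc1 stretch held 3 GC boxes and the Amd1 stretch held 1. In the 250 bases before the start of 32851 RefSeq promoters, 32.7% held a GC box, 10.4% held TATANAA on either strand and 6.02% held the E-box CACGTG, the sequence bound by Myc and Max. CACGTG was in neither the Odc1 nor the Amd1 window of 250 bases and was found before 1 of the 2 Sms starts. Bases outside the windows were not searched, so sites elsewhere in these genes are not covered. Windows for Sat1, Oaz1 and Oaz2 held 2, 0 and 3 GC boxes, and Azin1 and Srm had no entry.

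Cells were assigned to vessel types from the counts of a few marker genes, because a barcode annotation was not used here. A cell was endocardial when Npr3 and Tmem108 together outnumbered Fabp4, Cldn5 and Aplnr, angiogenic capillary with at least 2 UMIs (unique molecular identifiers, 1 per captured RNA molecule) over Kcne3, Apln and Pcdh17, mature capillary with at least 2 over Timp4, Car4 and C1qtnf9, and artery with at least 3 over Cxcl12, Glul, Alpl and Nebl. Cells that met more than 1 rule were kept out of every pool, which concerned 0.272% to 1.10% of the embryonic cells, 16.1% at P2 and 24.0% in the adult. Of the cells meeting each rule at P2, 609 of 1373 angiogenic, 863 of 1690 mature capillary and 403 of 687 artery cells were left. In the adult 41 of 174, 988 of 1954 and 889 of 1804 were left, so these pools hold only part of each type. Endocardial pools kept 1033 of 1060 cells at P2 and 65 of 65 in the adult. Each pool of cells of 1 type and stage was summed, and a level is the pool's UMIs of a gene per 1000000 UMIs (CPM) with an exact Poisson 95% interval. Intervals cover counting error only, and since reads came from 3′ ends, a level is compared for 1 gene across pools and not between genes.

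The 4 libraries held 4242 to 6062 called barcodes with 7079759 to 29645059 UMIs, and within the study's quality limits the median was 998 to 1484 UMIs per cell at E12, E15 and in the adult but 4504 at P2. From E12 to adult, endocardial cells numbered 1598, 2038, 1033 and 65. Angiogenic capillary cells numbered 44, 110, 609 and 41, mature capillary cells 863 at P2 and 988 in the adult, and cells meeting the artery rule 258, 52, 403 and 889. The capillary and artery rules are fixed UMI counts, so at the P2 depth they admit cells with a lower share of marker UMIs. With cells thinned to 500 UMIs, angiogenic pools held 29 cells at E15 and 71 at P2, and mature capillary pools 236 at P2 and 605 in the adult. Pools under 50 cells are given as values with their intervals and enter no comparison, and mature capillary pools of 2 and 3 cells at E12 and E15 are not described. Pairs of libraries shared 25 to 60 cell barcodes, at most 1.02% of either.

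Markers outside the rules put a limit on some of these names. Among the E12 cells meeting the artery rule only 8.53% had at least 2 pan-endothelial UMIs, and their mesenchymal and mural marker lists summed to 3450 and 1980 CPM. At E15 the share was 44.2% and the mesenchymal list summed to 6691 CPM, so both pools are called cells meeting the artery rule and are left out of the comparisons between types. Postnatally the artery check list (Gja4, Gja5, Hey1, Sema3g, Fbln5 and Sox17) summed to 2513 CPM in artery cells at P2 and 1794 in the adult, against 306 and 256 in mature capillary cells. The mature capillary check list (Rgcc, Gpihbp1, Cd36 and Tcf15) summed to 2905 CPM in P2 and 6756 in adult artery cells. Mature capillary cells had 6590 and 9510 CPM of it, so the adult artery pool also carried much capillary marker RNA. The P2 angiogenic pool is less distinct, since the angiogenic check list summed to 687 CPM there and 909 CPM in P2 mature capillary cells. Endocardial pools held mesenchymal markers too, with that list at 1170, 1103, 1834 and 2975 CPM from E12 to adult. At least 2 pan-endothelial UMIs were found in 75.8%, 86.7%, 100% and 98.5% of endocardial cells.

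**Figure D1:**
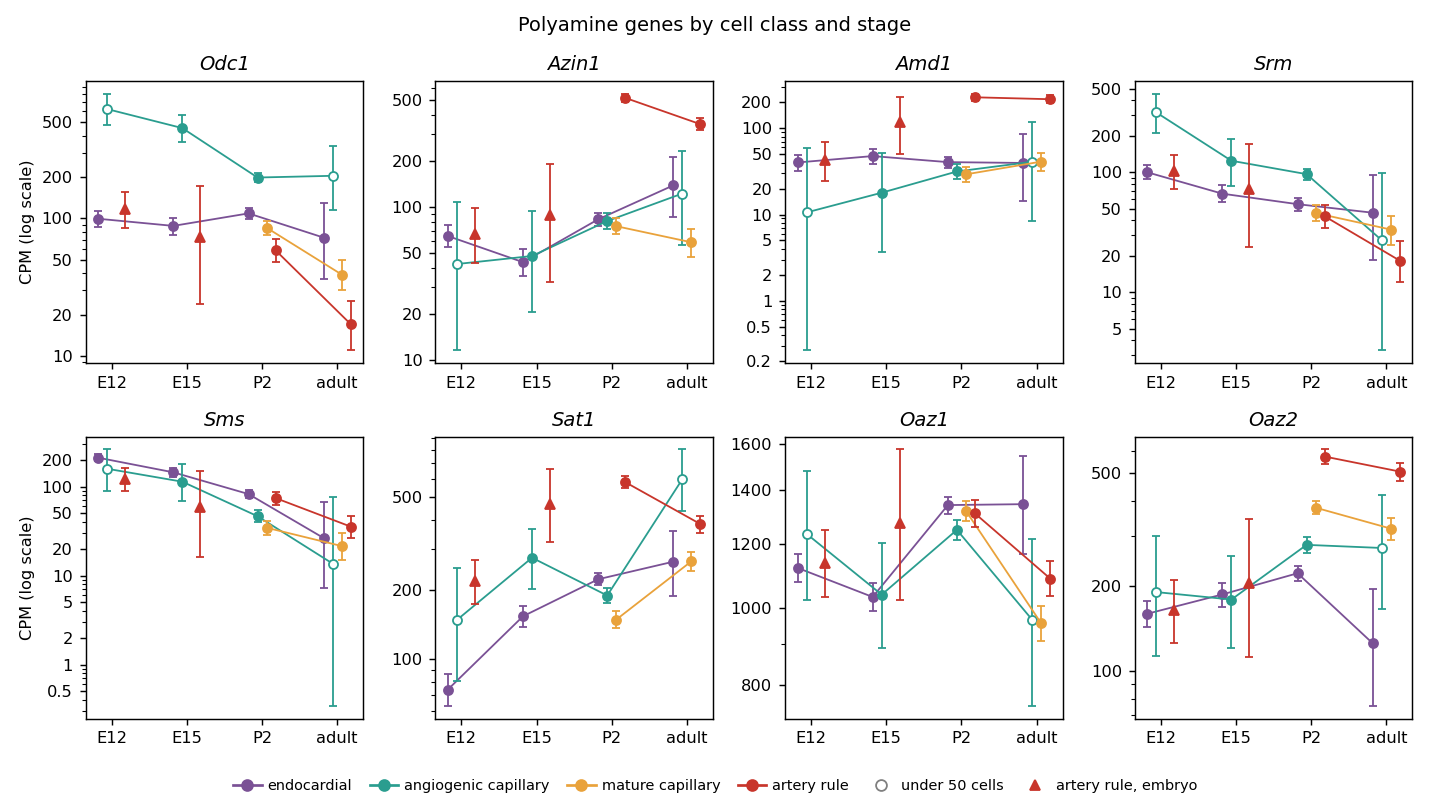
Level of each of the 8 genes (CPM, log axis) by stage, with 1 line per vessel type and bars for exact Poisson 95% intervals. Open circles are pools under 50 cells and the unjoined triangles are embryonic cells meeting the artery rule. Odc1 sits highest in angiogenic capillary cells at E15 (453 CPM) and P2 (198), Azin1 and Amd1 sit highest in artery cells at P2 (518 and 228) and in the adult (348 and 217), and Oaz1 stays between 956 and 1346 CPM in every pool drawn.

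Ornithine decarboxylase, which catalyses the first committed step of synthesis, had the most restricted pattern of the synthesis genes before birth. In angiogenic capillary cells Odc1 (ENSMUSG00000011179, chr12:17544794-17551505) stood at 623 CPM at E12 (474 to 804), 453 at E15 (357 to 567), then 198 at P2 (184 to 214) and 204 in the adult (114 to 337). In endocardial cells it stood at 99.5, 88.3, 109 and 72.6 CPM, with intervals from 36.2 to 130 over the 4 stages. The angiogenic and endocardial intervals did not overlap at E15 or P2.
Mature capillary cells held 85.6 CPM of Odc1 at P2 (76.3 to 95.8) and 39.1 in the adult (30.0 to 50.1). Artery cells were lower again at both ages, at 58.7 CPM (48.5 to 70.3) and 17.0 (11.03 to 25.2). Embryonic cells meeting the artery rule had 116 CPM at E12 and 73.4 at E15, the latter from 5 UMIs, and did not stand apart from endocardial cells.

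At E15 the CPM of Odc1 in angiogenic capillary cells was 5.13 times that in endocardial cells (counting interval 3.89 to 6.73), and at P2 it was 1.82 times (1.62 to 2.04). A gene is counted as past the fold where the ratio of the CPM was at least 1.5 in either direction, with at least 50 UMIs over both pools. By that count 4 of the 8 members (Odc1, Srm, Sat1 and Amd1) passed between these types at E15, where 47.1% of all genes tested did, and 3 (Odc1, Srm and Sms) at P2, where 43.1% did. These ratios stand beside a median log2 ratio of -0.14 and -0.13 over all genes tested, and nothing is read from the counts because the genes were chosen with these levels in view.
Dividing cells made up 25.5% of the E15 and 37.6% of the P2 angiogenic pool but 7.36% and 6.78% of the endocardial pools. Their rule is a fixed count of at least 2 UMIs of cell cycle genes, so these shares depend on depth. In endocardial cells the cell cycle list summed to 455 CPM at E15 and 184 at P2. In angiogenic cells it summed to 883 and 1317 CPM. Without dividing cells the Odc1 ratio was 4.80 at E15 and 1.80 at P2. The P2 value depended on which cells were kept, at 1.49 with cells that met a second rule put back and 1.26 with every cell thinned to 500 UMIs.

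Odc1 differed among P2 cells grouped by the 2 capillary rules, whose names have a limit. The angiogenic check list was lower in the angiogenic pool (687 CPM) than in the mature capillary pool (909 CPM). The pool that met only the angiogenic rule had 198 CPM of Odc1, and the pool that met only the mature rule had 85.6. The 631 cells that met both capillary rules had 141 (129 to 154). The 1892 cells that met no rule had 136 (128 to 144), close to those that met both. The mature to angiogenic ratio was 0.432 (0.376 to 0.495), and 2 of the 8 members, Odc1 and Srm, passed the fold against 11.1% of all genes tested. Without dividing cells the ratio was again 0.432. The angiogenic pool also held more RNA of other cells, with lymphatic and erythroid lists at 419 and 118 CPM against 63.4 and 11.7 in mature capillary and 178 and 13.3 in endocardial cells at P2. Without cells with at least 0.5% of their UMIs in lists of other cell types the Odc1 ratio was 0.426 for mature over angiogenic cells and 1.76 for angiogenic over endocardial cells.
The share of cells with an Odc1 UMI was 40.0% of angiogenic and 8.64% of endocardial cells at E15 (13.1% and 3.87% after thinning to 500 UMIs), 50.4% and 32.0% at P2 (7.22% and 4.65%), and 2.70% of adult artery cells. At P2 the thinned intervals of both types overlapped (5.30% to 9.58% and 3.45% to 6.11%). No endothelial type is known to lack these genes, and in the E12 library barcodes under 100 UMIs held 133 CPM of Odc1, 1.00 times the level of all called cells and above the 99.5 CPM of endocardial cells, so a low share of cells with a UMI is not read as expression.

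Dividing cells were those with at least 2 UMIs of cell cycle genes. Over all cells within the limits, dividing cells held 1.47, 1.68 and 1.35 times the Odc1 CPM of the other cells at E12, E15 and P2. Within P2 angiogenic capillary cells the ratio was 1.04 (0.892 to 1.21), whereas within P2 artery cells it was 2.23. The part of cell division in the levels of each type was not tested further.

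Spermidine synthase, which turns putrescine into spermidine, was also higher in angiogenic than in endocardial cells at E15 and P2. Srm (ENSMUSG00000006442, chr4:148591503-148594993) stood at 317 CPM in E12 angiogenic cells (214 to 452), 125 at E15 (77.5 to 192), then 96.9 at P2 (86.8 to 108) and 27.2 in the adult, where 2 UMIs were counted. Endocardial cells had 100, 66.6, 54.4 and 46.2 CPM over the 4 stages, mature capillary cells 45.9 at P2 and 33.4 in the adult, and artery cells 43.1 and 18.4, with overlapping intervals of mature capillary and artery cells at P2. The angiogenic to endocardial ratio was 1.88 at E15 (1.13 to 2.98) and 1.78 at P2 (1.51 to 2.098), and the mature to angiogenic ratio at P2 was 0.474. Keeping cells that met a second rule brought the P2 ratio to endocardial cells down to 1.36. Across the 12 pools of at least 50 cells the log2 levels of Odc1 and Srm had a Pearson correlation of 0.877, given as a description because pools of 1 stage share a library.

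Spermine synthase, the last enzyme of the chain, was lower at each later stage in endocardial cells. Endocardial Sms (ENSMUSG00000071708, chrX:157443855-157492287) was 211 CPM at E12 (192 to 231), 144 at E15 (129 to 161), then 82.4 at P2 (74.5 to 90.8) and 26.4 in the adult (7.19 to 67.5). Angiogenic cells went from 158 to 113, 46.4 and 13.6 CPM over the same stages, the last from 1 UMI, and their E12 and E15 intervals overlapped. Mature capillary cells had 34.5 CPM at P2 (28.7 to 41.1) and 21.4 in the adult (14.9 to 30.0), intervals that overlapped. Artery cells had 74.2 and 35.4. Each type with at least 50 adult cells was lower in the adult library than at P2. The angiogenic to endocardial ratio at P2 was 0.564, the only member past the fold downwards in that comparison, and it turned to 2.01 on thinned cells, where few UMIs were left.

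The second decarboxylase had its highest levels elsewhere. Amd1 (ENSMUSG00000075232, chr10:40287458-40302186) was nearly level in endocardial cells, at 40.1, 47.5, 40.5 and 39.6 CPM from E12 to adult. Angiogenic cells held 10.6 CPM at E12 (1 UMI), 17.9 at E15 (3 UMIs), then 31.5 at P2 (25.9 to 38.0) and 40.8 in the adult (3 UMIs), and mature capillary cells held 29.2 at P2 (23.9 to 35.3) and 41.0 in the adult (31.6 to 52.3). Artery cells stood at 228 CPM at P2 (208 to 250) and 217 in the adult (194 to 242), and no interval of another postnatal pool of at least 50 cells reached them. In embryonic cells meeting the artery rule, Amd1 was at 42.4 CPM at E12 and 117 at E15 (50.7 to 231, 8 UMIs). Among those with at least 2 pan-endothelial UMIs it was at 46.1 CPM at E12, from 2 UMIs. The E15 value for such cells was 199 CPM (73.2 to 434, 6 UMIs), against 47.0 (37.9 to 57.6) in endocardial cells filtered alike.
At E15 the ratio of angiogenic to endocardial Amd1 was 0.376 and rested on 3 UMIs in angiogenic cells, and it was 0.707 when no upper quality limits were set. Amd1 has a near copy, Amd2, on the same chromosome. Of the 311 possible 90-base reads in the last 400 bases of Amd1, 98.1% also occur in Amd2 transcripts, so the split between both genes is uncertain. Amd2 itself had 12 UMIs in P2 artery cells and 20 in adult artery cells, against 1 and 4 in mature capillary cells.

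Antizyme inhibitor, a catalytically inactive relative of ornithine decarboxylase, was another gene with its highest level in P2 artery cells among pools of at least 50 cells, as were Amd1, Sat1 and Oaz2. Azin1 (ENSMUSG00000037458, chr15:38487427-38519266) stood at 518 CPM in P2 artery cells (487 to 551) and 348 in adult artery cells (319 to 380). Mature capillary cells had 74.8 (66.1 to 84.3) and 58.7 (47.3 to 71.9), and P2 angiogenic and endocardial cells had 80.8 and 83.0. Before birth no full pool stood out at E12 or E15. Levels were 64.5 and 43.5 CPM in endocardial and 42.3 and 47.7 in angiogenic cells. Cells meeting the artery rule had 66.2 and 88.0 CPM. The 23 of them at E15 with at least 2 pan-endothelial UMIs had 166 CPM (54.0 to 388, 5 UMIs). Endocardial E15 cells with that many pan-endothelial UMIs had 41.9 CPM (33.3 to 52.0). The 22 such artery-rule cells at E12 had 69.2 CPM from 3 UMIs.
The highest endocardial value was the adult one, 139 CPM from 21 UMIs in 65 cells (85.7 to 212). Azin1 levels, like those of Amd1, therefore separated artery cells from each other postnatal pool of at least 50 cells, whereas Odc1 was at its lowest in artery cells at both ages. Over the 12 pools Azin1 and Amd1 had a correlation of 0.848 and Amd1 and Odc1 one of -0.705, both descriptions of pools that share libraries.

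**Figure D2:**
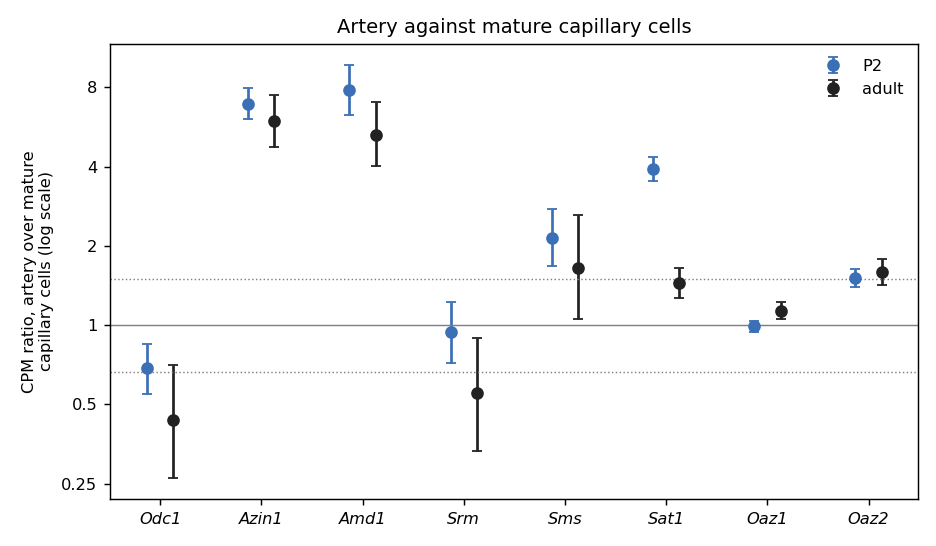
Ratio of CPM in artery cells to CPM in mature capillary cells (log axis) for each of the 8 genes at P2 and in the adult, with counting intervals as bars and dotted lines at the fold of 1.5 in each direction. Azin1 and Amd1 lie furthest above 1 at both ages (6.93 and 7.81 at P2, 5.94 and 5.29 in the adult), and Odc1 and Srm lie below 1 in the adult (0.436 and 0.550, the latter 1.05 on thinned cells).

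Artery and mature capillary cells are vessel types present in both postnatal libraries and are compared here as artery over mature capillary. At P2 the ratio was 7.81 for Amd1 (6.31 to 9.76), 6.93 for Azin1 (6.05 to 7.95), 3.91 for Sat1 (3.53 to 4.34), 2.15 for Sms and 1.52 for Oaz2. These 5 of 8 members passed the fold, all higher in artery cells, against 20.4% of all genes tested. The members' median log2 ratio was 0.85, against 0.07 over all genes. Nothing is read from these counts or medians, here or in the other comparisons, because the genes were chosen with these levels in view.
In the adult the ratio was 5.94 for Azin1 (4.75 to 7.49), 5.29 for Amd1 (4.04 to 7.01), 1.65 for Sms and 1.59 for Oaz2. Odc1 (0.436) and Srm (0.550) were on the other side, although Srm turned to 1.05 on thinned cells, which made 6 of 8 past the fold against 17.1% of all genes tested. The members' median log2 ratio was 0.60 and that of all genes 0.08.
Sat1 stood at 1.45 in the adult, inside the fold, and at 1.74 without cells with at least 1% of their UMIs in immediate-early genes. Such cells, often seen after tissue dissociation, made up 21.7% of mature capillary and 22.6% of artery cells at P2, and 19.3% and 14.4% of adult cells. The Oaz2 ratio at P2 was as low as 1.22 under the other settings and is close to the fold. Adult Oaz2 fell to 1.23 on thinned cells and to 1.4996 when scaled by the median of ratios. On thinned cells, where fewer UMIs were left, Sms fell to 1.11 for P2 and 1.15 for adult cells. Taking the mean of each cell's CPM gave 1.36 for adult Sms. All of these Oaz2 and Sms values lie inside the fold.

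Markers of other cells were more abundant in the adult artery pool than in adult mature capillary cells. Erythroid, mesenchymal, mural and leukocyte lists summed to 826, 744, 468 and 382 CPM in artery cells, against 33.4, 45.4, 39.7 and 16.4 CPM in mature capillary cells. When cells with at least 0.5% of their UMIs in these lists were left out, Azin1 was 6.22 and Amd1 5.53 times as high in artery cells, and the same number of members, 6, passed the fold. At P2 the corresponding ratios were 7.11 and 8.16, and 6 members passed in place of 5.
A UMI of Azin1 or Amd1 was also found in a larger share of artery cells. An Azin1 UMI was found in 76.9% of artery and 24.2% of mature capillary cells at P2 and in 33.5% and 8.70% in the adult, and after thinning to 500 UMIs per cell in 23.8% and 3.01% of P2 cells and in 14.2% and 2.23% of adult cells. For Amd1 the shares were 47.4% and 10.7% in P2 cells and 24.7% and 6.07% in adult cells (thinned, 12.4% and 1.04%, and 9.22% and 1.92%). The order of the types was the same with and without thinning.

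Cells that met both the mature capillary and the artery rule numbered 134 at P2 and 848 in the adult, and were not part of either pool. They were looked at after the data had been seen. Their Azin1 level was 306 CPM at P2, between 74.8 in mature only and 518 in artery only cells, and 146 CPM in the adult, between 58.7 and 348. Amd1 was at 77.3 CPM at P2 and 99.5 in the adult, again between the single-rule pools. Sat1 was intermediate as well, at 363 and 340 CPM.
Oaz2 in these cells was 535 CPM at P2 and 522 in the adult, close to artery only cells at 572 and 506. Odc1 was 40.9 CPM at P2, not between mature only (85.6) and artery only cells (58.7), and 29.6 CPM in the adult, between 39.1 and 17.0. The artery rule itself used Glul, Cxcl12, Alpl and Nebl and none of the 8 members.

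**Figure D3:**
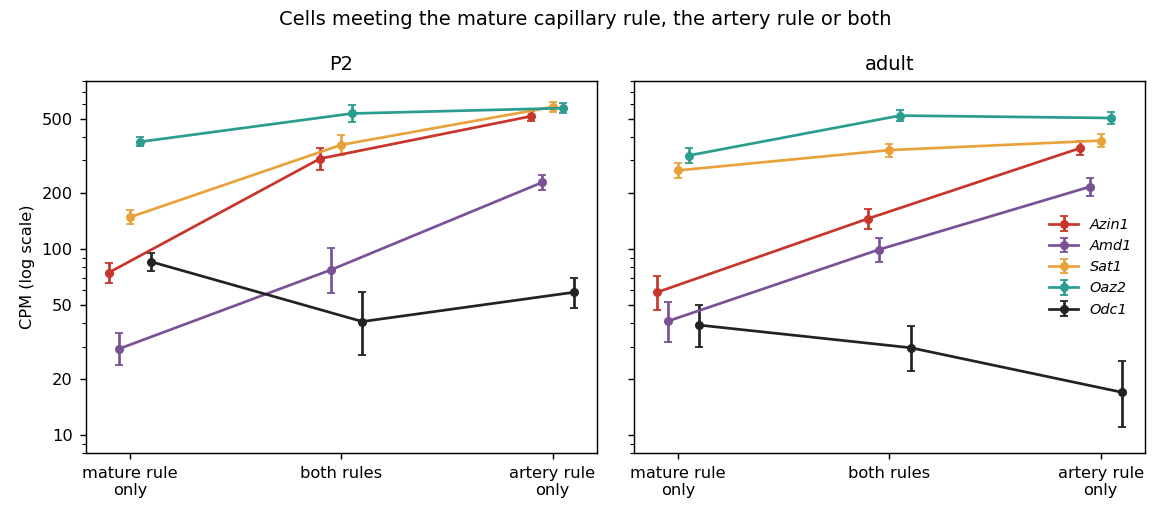
Level (CPM, log axis) of 5 genes in cells meeting only the mature capillary rule, both rules, or only the artery rule, at P2 and in the adult, with exact Poisson 95% intervals. Azin1 steps from 74.8 to 306 and 518 CPM at P2 and from 58.7 to 146 and 348 in the adult, and Amd1 and Sat1 step up in the same order, whereas Odc1 goes from 39.1 to 29.6 and 17.0 in the adult.

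Sat1, the breakdown enzyme, was lowest in the youngest endocardium. Endocardial Sat1 (ENSMUSG00000025283, chrX:155213132-155216449) was 74.2 CPM at E12 (63.1 to 86.5), 153 at E15 (138 to 171), then 222 at P2 (209 to 235) and 264 in the adult (189 to 359). Angiogenic cells had 148 (80.8 to 248), 274 (201 to 366), 189 (174 to 204) and 599 (435 to 804) CPM, without a steady course. Mature capillary cells had 148 CPM at P2 (136 to 162) and 265 in the adult (240 to 292).
Artery cells had the highest Sat1 of the P2 types at 581 CPM (548 to 615) and had 383 in the adult (352 to 416). Embryonic cells meeting the artery rule held 217 CPM at E12 and 470 at E15. Among those with at least 2 pan-endothelial UMIs Sat1 was at 438 CPM at E12 (264 to 684, 19 UMIs). The E15 value for such cells was 831 CPM (538 to 1227, 25 UMIs). Endocardial cells filtered alike had 77.9 and 151 CPM. Sat1 was also uneven from cell to cell, with as many as 55 UMIs in 1 angiogenic and 42 in 1 artery cell at P2. In the angiogenic pools 1 cell held 8 of the 14 Sat1 UMIs at E12 and 1 cell held 19 of the 44 in the adult. Over all cells, dividing cells had 0.812, 0.686 and 0.755 times the Sat1 CPM of the others at E12, E15 and P2, with the types mixed. Within P2 types the ratio was 0.700 (0.566 to 0.861) in mature capillary and 1.27 (1.11 to 1.46) in artery cells. It was 0.977 in P2 angiogenic cells and 0.956, 0.805 and 0.862 in endocardial cells at E12, E15 and P2. The angiogenic and endocardial intervals all included 1.

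The 2 antizymes behaved differently. Oaz1 (ENSMUSG00000035242, chr10:80826656-80829290), the widely expressed antizyme, ranged only from 956 CPM in adult mature capillary cells (909 to 1006) to 1346 in adult endocardial cells (1167 to 1543) over the 12 pools and the pools under 50 cells described here. It passed the fold in none of the 11 comparisons. Its P2 levels were 1342, 1250, 1320 and 1310 CPM in endocardial, angiogenic, mature capillary and artery cells.
Oaz2 (ENSMUSG00000040652, chr9:65668001-65690300), the second antizyme, was ordered by vessel type after birth. At P2 it was 222 CPM in endocardial (209 to 235), 279 in angiogenic (262 to 297), 378 in mature capillary (358 to 398) and 572 in artery cells (539 to 606), and none of these intervals overlapped. In the adult the levels were 125 (75.5 to 196), 272 (166 to 420), 319 (291 to 348) and 506 (471 to 544) for the same types, the angiogenic value from 41 cells. Before birth Oaz2 lay between 159 and 205 CPM in each pool described, cells meeting the artery rule included. Among E15 artery-rule cells with at least 2 pan-endothelial UMIs it was at 366 CPM (183 to 654, 11 UMIs). Endocardial E15 cells filtered alike had 186 CPM (167 to 206). Such artery-rule cells at E12 had 138 CPM from 6 UMIs. Over all cells, with the types mixed, dividing cells had 0.776 to 0.824 times the Oaz2 CPM of other cells at E12, E15 and P2. Within P2 types the ratio was 0.739 in angiogenic, 0.744 in mature capillary and 0.847 (0.721 to 0.992) in artery cells. In endocardial cells it was 0.827, 1.19 and 0.952 at E12, E15 and P2, with intervals that included 1.

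Stage differences were read within 1 type at a time, with pools set by UMI counts in libraries of unequal depth. In endocardial cells from E12 to E15, Sat1 was 2.07 times as high and Srm 0.663 times. These 2 of 8 passed the fold against 18.5% of all genes tested. The Srm ratio is close to the fold and was inside it under several other settings, at 0.762 on thinned cells and 0.709 without dividing cells. From E15 to P2 Azin1 was 1.91 and Sms 0.570 times as high, 2 of 8 against 39.2%, in a comparison whose median gene had a log2 ratio of 0.27, and on thinned cells Azin1 turned to 0.824. From P2 to adult, with 65 adult cells, Azin1 was 1.67 times, Odc1 0.667, Oaz2 0.566 and Sms 0.320 times as high, 4 of 8 against 49.7%.
E12 endocardial cells also carried erythroid RNA, 2237 CPM over that list. Leaving out cells with 0.5% of UMIs in lists of other types gave 3 members past the fold from E12 to E15 in place of 2.

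In angiogenic cells from E15 to P2, Odc1 was 0.437 and Sms 0.410 times as high, and Azin1, Amd1 and Oaz2 were 1.69, 1.76 and 1.56 times as high, so 5 of 8 passed against 53% of all genes tested. The median gene stood at a log2 ratio of 0.36 in this comparison. It has no value at equal depth, because thinning to 500 UMIs left 29 cells at E15. Scaled by the median of ratios, Azin1, Amd1 and Oaz2 came to 1.32, 1.37 and 1.21, inside the fold, and only Odc1 and Sms stayed past it. Without dividing cells Azin1 was at 1.10. The E15 pool had 8 UMIs of Azin1 (interval of the ratio 0.848 to 3.96) and 3 of Amd1 (0.587 to 8.67), and Amd1 was at 1.01 without upper quality limits.

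From P2 to adult, mature capillary cells had Odc1 at 0.457, Sms at 0.622 and Sat1 at 1.78 times the P2 level, 3 of 8 past the fold against 35.6% of all genes tested. Without cells with at least 1% immediate-early UMIs the Sat1 ratio was 1.47. Artery cells over the same ages had Odc1 at 0.290, Srm at 0.427, Sms at 0.478 and Sat1 at 0.660 times the P2 level, 4 of 8 against 34.8%, with Azin1 at 0.672 just inside the fold.
Odc1 and Sms were thus lower in the adult library in mature capillary and artery cells. Endocardial Odc1 rested on 11 adult UMIs, its ratio of 0.667 had an interval of 0.331 to 1.203, and it was inside the fold under 4 other settings (0.670 to 0.686), while endocardial Sms rested on 4 adult UMIs (0.0869 to 0.827). Amd1 did not pass the fold in any of these 3. Sat1 stood above its P2 level in adult mature capillary cells and below it in adult artery cells, a difference that was not tested, and the artery ratio was inside the fold under 6 other settings (0.668 to 0.779).

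The balance of synthesis against breakdown was read as UMIs of Odc1, Amd1, Srm and Sms together per UMI of Sat1. This ratio means something only between pools, since genes are not captured equally well. Its breakdown side is Sat1 alone. Smox, spermine oxidase, is not in it and was lower in artery than in mature capillary cells, at 34.1 against 80.1 CPM at P2. The adult Smox levels were 29.3 and 74.4 CPM. In endocardial cells the ratio was 6.08 at E12 (5.14 to 7.23), 2.26 at E15 (1.99 to 2.58), then 1.29 at P2 (1.19 to 1.40) and 0.700 in the adult (0.416 to 1.16). Endocardial cells thus had a lower ratio at each later stage. In angiogenic cells it was 2.59 at E15 and 1.98 at P2, with overlapping intervals, and 7.50 and 0.477 in the pools of 44 and 41 cells at E12 and in the adult. In those small pools 1 cell held 8 of the 14 and 1 cell held 19 of the 44 Sat1 UMIs.
Mature capillary cells had 1.31 at P2 (1.17 to 1.47) and 0.510 in the adult (0.430 to 0.602). Artery cells had 0.696 (0.635 to 0.762) and 0.751 (0.660 to 0.853), intervals that overlapped, so no change with age showed there. Artery cells had the lowest ratio of the 4 types at P2. In the adult their interval lay above that of mature capillary cells and overlapped that of endocardial cells.
Odc1 alone per Sat1 UMI kept artery cells lowest at both ages, at 0.101 at P2 and 0.0445 in the adult. Mature capillary cells had 0.577 and 0.148, endocardial cells 0.491 and 0.275, and angiogenic cells 1.05 and 0.341. The last value comes from the adult pool in which 1 cell held 19 of the 44 Sat1 UMIs. Amd1 made up most of the synthesis UMIs of artery cells, 455 of 806 at P2 and 318 of 422 in the adult.

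**Figure D4:**
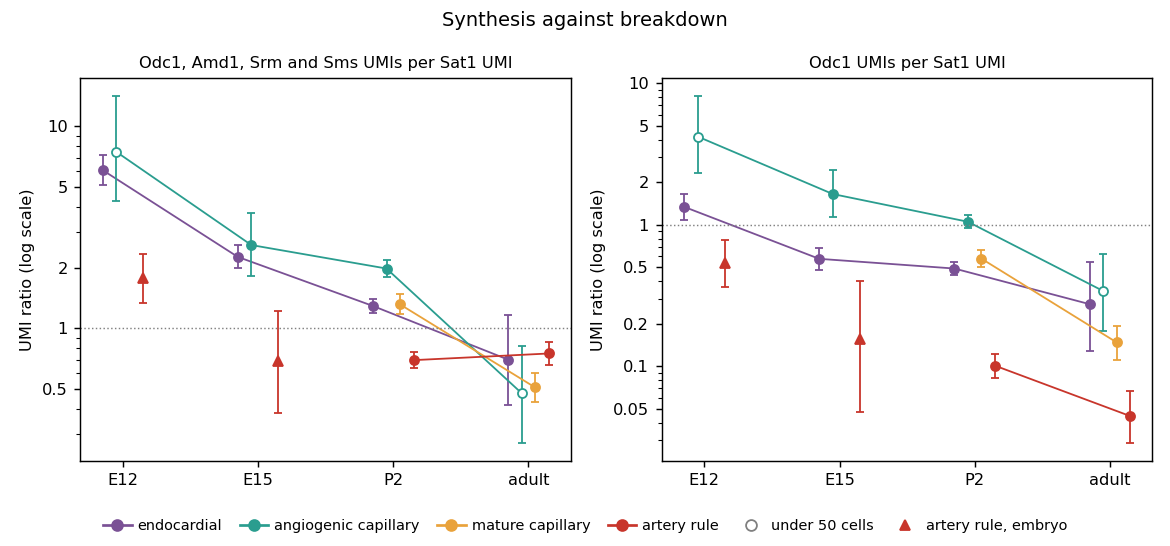
UMIs of the synthesis genes Odc1, Amd1, Srm and Sms per UMI of Sat1 (left) and of Odc1 alone per UMI of Sat1 (right), on log axes by stage and vessel type, with counting intervals. On the left endocardial cells go from 6.08 at E12 to 0.700 in the adult while artery cells stay at 0.696 and 0.751, and on the right artery cells are lowest at P2 (0.101) and in the adult (0.0445).

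The rest of the pathway was taken from a list of 31 genes for transport, methionine supply and salvage, oxidation, hypusination and Myc factors, of which 11 to 21 had enough UMIs in a comparison. Atp13a3 (chr16:30312423-30405975), a transporter that brings polyamines into the cell, had the artery pattern of Azin1 and Amd1. It stood at 139 CPM in P2 artery cells (123 to 156) and 91.3 in the adult (76.5 to 108), against 17.5 (13.5 to 22.4) and 11.98 (7.21 to 18.7) in mature capillary cells, ratios of 7.93 and 7.62. Smox, spermine oxidase, was at 34.1 CPM in artery and 80.1 in mature capillary cells at P2, a ratio of 0.426, and its adult ratio was 0.394.
In all, 4 of 17 list genes over the UMI minimum were past the fold upwards in artery cells at P2 (Atp13a3, Atp13a2, Slc3a2 and Dhps) and 1 downwards (Smox), where 20.4% of all genes tested passed in either direction. In the adult 3 of 15 were higher (Atp13a3, Slc3a2 and Atp13a2) and 2 lower (Smox and Mtap), where 17.1% of all genes did. Slc3a2, the heavy chain of amino acid transporters, had a ratio of 1.56 at P2 and 1.65 in the adult.

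Angiogenic and endocardial cells differed in both directions over the list. Mycn, a Myc family transcription factor, was at 71.9 CPM in P2 angiogenic cells (63.3 to 81.4) and 8.01 in endocardial cells (5.70 to 10.9), a ratio of 8.98, and at E15 it had 11 and 7 UMIs, under the minimum. Eif5a, the translation factor that carries hypusine made from spermidine, was 1.76 and 1.68 times as high in angiogenic as in endocardial cells at E15 and P2. At P2, 4 of 21 list genes were higher (Mycn, Myc, Mtap and Eif5a) and 4 lower (Paox, Adi1, Atp13a2 and Slc7a1), where 43.1% of all genes tested passed the fold. At E15, 3 of 11 were higher (Smox, Eif5a and Dohh) and 4 lower (Mat2a, Mat2b, Atp13a2 and Slc7a1), where 47.1% did.
Between ages, Mat2a, which makes the S-adenosylmethionine that Amd1 decarboxylates, was 2.87 times as high in adult as in P2 endocardial cells, 2.14 times in mature capillary cells and 1.55 times in artery cells. Slc3a2 was 2.98, 1.82 and 1.93 times as high in the same 3 types. Myc was at 0.0504 times the P2 level in adult mature capillary cells, from 2 adult UMIs (0.00601 to 0.187), at 0.284 times in artery cells, and at 1.42 times in endocardial cells, from 3 adult UMIs (0.285 to 4.32). Eif5a was at 0.629 and 0.641 times in mature capillary and artery cells.

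**Figure D5:**
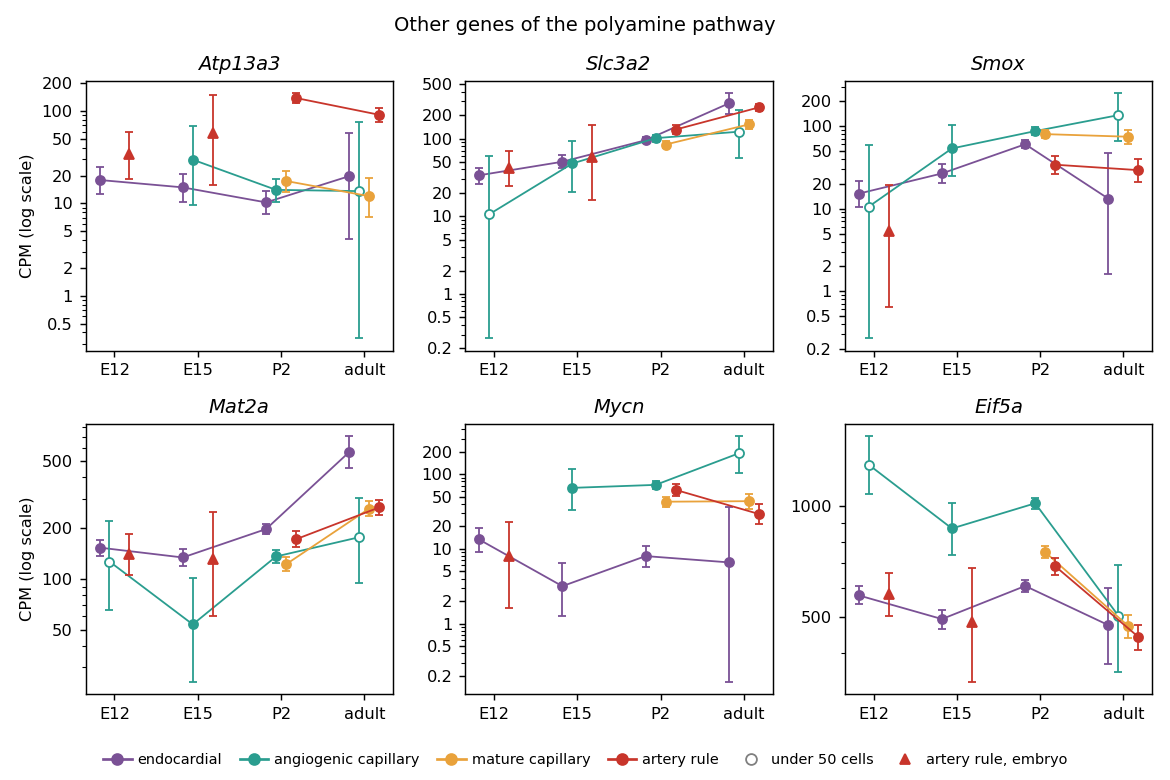
Level (CPM, log axis) of 6 further genes of the pathway by stage and vessel type, drawn like the members, with pools at 0 UMIs left out. Atp13a3 is highest in artery cells at P2 (139 CPM) and in the adult (91.3), Smox is lower there (34.1 and 29.3) than in mature capillary cells (80.1 and 74.4), and Mycn is higher in P2 angiogenic cells (71.9) than in P2 endocardial cells (8.01).

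The genes most like each member over the 12 pools were ranked by the Pearson correlation of log2(CPM + 10) among 8441 genes. Odc1 was closest to Stra13 (0.912), Nop16 (0.910) and 2010107E04Rik (0.895), and Azin1 to Ak3 (0.937), Glul (0.934) and Fads3 (0.932). Amd1 was closest to Glul (0.941), Nebl (0.940) and Vegfc (0.921), of which Glul and Nebl belong to the artery rule. Sat1 had its highest value with Dnajc30, at 0.840, and Oaz2 was closest to Fes (0.971).
Without the embryonic pools meeting the artery rule, Odc1 was closest to Aprt (0.980), Azin1 to Fads3 (0.968) and Amd1 to Fbln5 (0.988). Sat1 was then closest to Card19 (0.917) and Fxyd5 (0.897). Only Stra13 for Odc1 and Fads3 and Glul for Azin1 were among the leading 3 in both rankings of those genes. The pools share libraries and depth, so these values are given with no test.

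RNA outside cells was looked at in the E12 library, whose table also lists 156803 barcodes under 100 UMIs. Member levels in those barcodes were 0.615 to 1.40 times those in the called E12 cells, so the members' RNA was present in droplets without a called cell at similar shares. The other tables list called barcodes only.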

How the data were processed

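Sorted CD31+/CD45- heart cells of 4 stages, with 1 library each, were analysed from the deposited UMI counts per gene and barcode, which the authors made with Cell Ranger 2.2 against mm10 without normalization, and no reads were realigned. The E12 table holds all barcodes, so those with at least 0.1 of the 0.99 quantile of UMIs among 3000 expected cells were called (452 UMIs or more). The study's upper limits on UMIs, genes and mitochondrial share were then applied. Doublets were not removed in the main analysis, and an alternative removed Scrublet scores over 0.15 (scanpy 1.11.5), which marked 2.43% to 9.47% of barcodes.

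UMIs were summed per pool with Python 3.11.15, numpy 2.4.6, pandas 2.3.3 and scipy 1.17.1. Levels were given as CPM with exact Poisson 95% intervals and ratios of CPM with exact conditional binomial intervals. Only the ratios were checked on simulated data. The simulated counts had Poisson error alone, so that check could not cover uneven levels from cell to cell. A ratio was counted past 1.5-fold with at least 50 UMIs over both pools, and pools needed 50 cells, which left 11 of 13 comparisons. No p-value was computed. Genes named besides the 8 members came from the pathway list by that same fold, or were the 3 most correlated per member. The members and lists were chosen with earlier results of these data known. Positions came from GENCODE M21 and promoters from RefSeq, both on GRCm38. In all, 16 alternatives were tried, and those added after seeing the data left out the cell richest in a gene or cells with 0.5% of UMIs in markers of other cell types. The levels of cells meeting both of 2 rules, or no rule, were also added after seeing the data.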

Additional observations from a re-analysis of the deposited data

Results flagged for a closer look

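Several members had ratios on opposite sides of 1 in different vessel types under the same contrast, and none of these differences was tested, because each pool is 1 library. From P2 to adult the Azin1 ratio was 1.67 in endocardial cells but 0.672 in artery and 0.784 in mature capillary cells. The Sat1 ratio over the same ages was 1.78 in mature capillary cells and 0.660 in artery cells, the latter inside the 1.5-fold limit under 6 other settings. From E15 to P2 the Odc1 ratio was 0.437 in angiogenic capillary cells and 1.23 in endocardial cells, where the median gene stood at 1.21, and the Sat1 ratio was 0.687 and 1.44 in the same pools. The Sat1 ratio of angiogenic to endocardial cells was 1.79 at E15 and 0.851 at P2.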

How the results depend on the processing

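Of 469 values of the 40 member ratios past the fold under other settings, 466 kept their direction and 424 stayed past 1.5-fold. The 3 that turned came from thinning each cell to 500 UMIs, where Sms in angiogenic against endocardial cells at P2 was 2.01, Srm in artery against mature capillary cells in the adult 1.05 and Azin1 in endocardial cells from E15 to P2 0.824. Thinning left 0 members past the fold in angiogenic against endocardial cells at P2, 1 in mature against angiogenic and in artery against mature capillary cells at P2, 2 in artery against mature capillary cells in the adult, 1 in endocardial cells from E12 to E15 and from E15 to P2, 1 in mature capillary cells from P2 to adult and 2 in artery cells. On thinned cells 2 to 7 of the 8 members kept 50 UMIs and the pools held fewer cells. It gave no value for angiogenic against endocardial cells at E15, endocardial cells from P2 to adult or angiogenic cells from E15 to P2, where pools fell under 50 cells.

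A fold of 2 left 2 and 0 members in angiogenic against endocardial cells at E15 and P2, 3 in artery against mature capillary cells in the adult, 1, 0 and 1 in endocardial cells over successive stages, 2 in angiogenic cells from E15 to P2 and 1 in mature capillary cells from P2 to adult. Keeping cells that met 2 rules gave 1 in angiogenic against endocardial cells at P2 and 5 in mature capillary cells from P2 to adult. Without upper limits, and without dividing cells, 1 member passed in endocardial cells from E12 to E15, and without dividing cells 3 passed in angiogenic cells from E15 to P2. The cause of these shifts was not tested.

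Over all genes the number past the fold in artery against mature capillary cells was 1649 at P2 and 1099 in the adult, and was 685 and 381 with a fold of 2, 138 and 295 on thinned cells, 2535 and 2054 with a minimum of 20 UMIs and 4318 and 3840 with none. In angiogenic against endocardial cells it was 2486 at E15 and 4023 at P2, and 1353 and 2182 with a fold of 2. In the other comparisons a fold of 2 brought it from 943 to 204 in mature against angiogenic cells at P2, from 1359 to 392, 3513 to 1422 and 4026 to 2238 in endocardial cells over successive stages, from 3589 to 2112 in angiogenic cells from E15 to P2, and from 2788 to 1365 in mature capillary and 2432 to 1121 in artery cells from P2 to adult. With no minimum of UMIs these counts went up by more than 1.5 times in most comparisons, to between 3088 and 6359. Leaving out the cell richest in each gene changed the direction of none of the ratios past the fold. No paired analysis was possible because each stage has a single library with replicate number 1. Depth limits pools of the E12, E15 and adult libraries in which a member had fewer than 10 UMIs.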
